A study of Mus musculus with 12 samples.

Results

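The chemokine ligands of the mouse were followed here across isolated glomeruli and podocyte cultures in which Foxc1 and Foxc2, a pair of forkhead transcription factors, can be deleted with tamoxifen. Members were all genes with a symbol of Ccl or Cxcl and a number, plus Cx3cl1 and Xcl1, matched to the array's probes by RefSeq accession. Of 44 such symbols in the RefSeq table, 34 were matched, out of 20144 named genes on the array. The remaining 10 symbols, Ccl21a to Ccl21d, Ccl27b, Cxcl11 and 4 pseudogenes, were not analysed here.

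All samples came from mice that carried an inducible Cre (CreERT2) with floxed alleles of both Foxc1 and Foxc2, controls and mock-treated cultures included. In the genotype labels the number of the other floxed gene runs upwards along the samples, and it was read as Foxc2 throughout, as in the title of the series. The promoter that drives the Cre is not given in the sources used here. Tamoxifen was injected into the peritoneum of mice 8 weeks old on 3 consecutive days, and their glomeruli were taken on day 7, whereas control mice received no agent. Podocytes were also grown out from glomeruli of adult mice and exposed to tamoxifen, in its active form according to the series text, or to a mock treatment for 4 or 7 days. Each of the 6 groups held 2 arrays, 12 in all. In none of the comparisons can the drug and the recombination it starts be told apart, because no array carried tamoxifen without the floxed alleles. The glomerular labels name separate mice. The culture labels do not say whether their replicates were separate cultures, so the spread between these samples may be technical. The fit used for testing takes each gene's spread from all 12 arrays together. Every p-value thus rests on the spread between culture samples and on that between mice, in glomeruli as in cultures.

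Chemokines are small secreted proteins that direct the migration of leukocytes and other cells by binding receptors of the G-protein-coupled family. Some, such as Cxcl12, are made constitutively and guide the positioning of progenitors and vessels, while others, such as Ccl2, Cxcl1 and Cxcl10, are induced by inflammatory or interferon signals. In the glomerulus, podocytes are a known source of Cxcl12, and its receptor Cxcr4 takes part in the formation of the glomerular vessels.

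Each gene was read as one-colour fluorescence, and levels are log2 signal relative to the 75th percentile of the array, so that 0 is a bright gene and each unit is a doubling. The scanner software marks a spot as well above background or not, and a gene was tested where its probe was well above background on at least 2 arrays, which left 15230 genes. The 75th percentile signal ran from 506.8 to 760 units per array against a median background of 24.5 to 34, between 57.91% and 63.4% of spots were well above background, and replicates correlated at r = 0.983 to 0.99. The levels of Foxc1 bore out the labels. They were 2.92 and 2.81 in control glomeruli against 0.92 and 1.09 after tamoxifen, 3.09 and 4.21 against -5.78 and -1.74 in the day 4 cultures, and 2.62 and 4.32 against -8.21 and -3.26 in the day 7 cultures. Foxc2 was lower on every tamoxifen array than on every array of its control group. All 12 podocyte markers were well above background on all 12 arrays, but their summed level was 8.26 to 9.25 in glomeruli and 6.12 to 6.32 in cultures. Of 6 tested fibroblast markers, 4 were called higher and 1 lower in mock cultures than in control glomeruli (median 2.01). With 2 arrays against 2 an exact permutation test cannot give a two-sided p below 0.333, so the tests below come from limma's fit over all 12 arrays and all tested genes, with Benjamini-Hochberg adjustment and a threshold of 0.05.

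Of the 34 ligands, 11 were well above background on all 12 arrays. They were the macrophage and dendritic cell product Ccl17, the lymphoid chemokine Ccl19, the thymic and gut chemokine Ccl25, the epithelial chemokine Ccl27a, the T cell attractant Ccl5, the myeloid chemokines Ccl6 and Ccl9, the membrane-bound chemokines Cx3cl1 and Cxcl16, the interferon-induced Cxcl10, and Cxcl12. A further 11 were above background on some arrays only. The remaining 12 were above background on none, with levels between -8.42 and -5.77. They included the eosinophil attractant Ccl11, the dendritic cell chemokine Ccl22, the neutrophil attractants Cxcl2, Cxcl3 and Cxcl5, and the lymphocyte product Xcl1. After the filter, 21 ligands were tested and 13 were not, the untested ones being these 12 and Cxcl17, which was above background on 1 array. Detection differed between the systems. Among the tested ligands 15 were above background on every culture array and 12 on every glomerular array, and Ccl7, a monocyte attractant, was above background on every culture array and on no glomerular array.

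**Figure D1:**
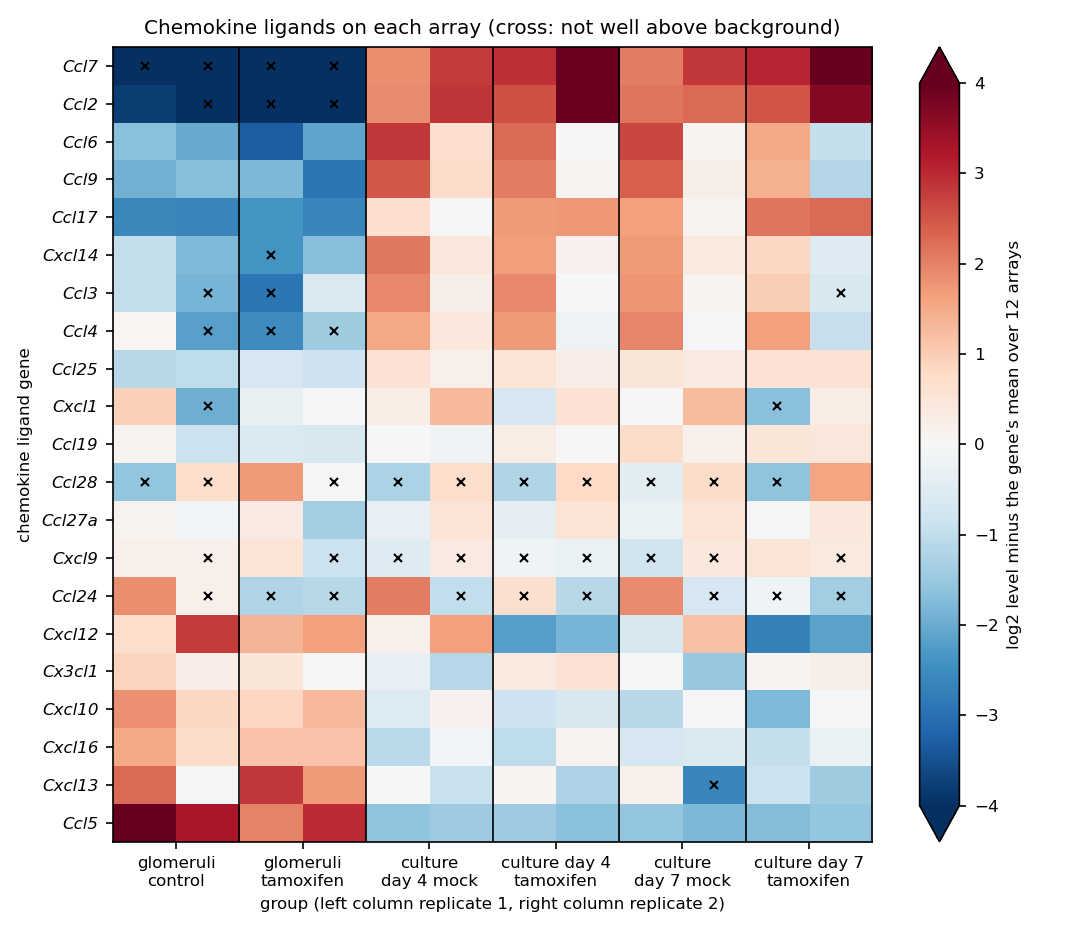
Log2 level of the 21 tested chemokine ligands (one line each) on the 12 arrays (columns, by group), shown as the difference from the gene's own mean over all arrays, on a colour scale from -4 to 4. A cross marks an array on which the gene was not well above background. Genes are ordered by the difference between mock cultures and control glomeruli, with Ccl7 and Ccl2 high in the cultures at one end and Ccl5 high in the glomeruli at the other.

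In the cultures, tamoxifen went with less Cxcl12 and more Ccl17. Averaged over both days, Cxcl12 fell 7.03-fold and Ccl17 rose 2.55-fold, and these were the 2 of 21 ligands (9.52%) that passed the threshold, against 5.1% of all genes tested. Leaving out 1 array at a time moved that share of all genes from 1.49% (without day 4 mock replicate 2) to 6.08% (without day 7 mock replicate 1). A share of this size over 21 genes is close to the background. Of the 21, 4 had treated and mock arrays that did not overlap, Cxcl12 on the lower side and Ccl17, Ccl7 and Cx3cl1 on the higher, against 27.5% of all genes. The median difference over the 21 ligands was -0.02, beside 0.01 over all genes. Taken alone, neither day gave a call among the ligands in limma's fit, and few genes passed in either test (0.21% at day 4 and 0.972% at day 7). An unadjusted p under 0.05 was found for 3 ligands on each day, beside 1665 of the 15230 genes at day 4 and 1855 at day 7. Arrays did not overlap for 5 ligands at day 4 (50.6% of all genes) and 6 at day 7 (41.3% of all genes).

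The promoters of 24 of the 34 ligands were held in the RefSeq table (GRCm38.p6). The other 10 had no window there and could not be searched. They were Ccl2, Ccl4, Ccl5, Ccl7, Ccl11, Ccl24, Ccl26, Cxcl5, Cxcl16 and Cxcl17. The 250 bases before the start site are shown for Cxcl12 and Ccl17, which passed in the cultures, and for Cx3cl1, which did not pass. Forkhead motifs were among those searched because the deleted factors bind them. Capitals mark the motif matches, which in these windows were the GC box GGGCGG and, in Cx3cl1, the TATA box TATAAA, read on both strands.
Cxcl12: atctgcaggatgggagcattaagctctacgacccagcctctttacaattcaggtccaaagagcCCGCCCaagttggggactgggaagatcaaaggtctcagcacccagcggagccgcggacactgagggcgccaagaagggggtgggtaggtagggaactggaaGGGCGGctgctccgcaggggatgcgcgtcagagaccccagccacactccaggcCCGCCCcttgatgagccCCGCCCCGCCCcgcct
Ccl17: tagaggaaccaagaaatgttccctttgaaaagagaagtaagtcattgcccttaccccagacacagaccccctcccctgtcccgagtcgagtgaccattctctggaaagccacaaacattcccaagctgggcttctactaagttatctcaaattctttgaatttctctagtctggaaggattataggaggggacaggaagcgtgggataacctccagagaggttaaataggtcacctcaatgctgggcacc
Cx3cl1: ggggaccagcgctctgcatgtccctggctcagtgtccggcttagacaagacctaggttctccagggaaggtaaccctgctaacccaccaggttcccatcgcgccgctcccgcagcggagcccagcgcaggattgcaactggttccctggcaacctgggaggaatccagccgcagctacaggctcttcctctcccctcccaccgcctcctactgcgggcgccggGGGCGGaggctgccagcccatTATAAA
The Cxcl12 window lies at chr6:117168285-117168534 and the neighbouring Cx3cl1 and Ccl17 windows at chr8:94771930-94772179 and chr8:94810203-94810452, all on the plus strand. Cxcl12 held GC boxes at 187, 86, 33, 16 and 11 bases before its start, the last pair overlapping, and Cx3cl1 held 1 at 27 bases. The letters TATAAA in Cx3cl1 are the last 6 bases before the annotated start. These are matches of letters, and whether any of them acts as a promoter element was not tested. The GC box occurs in 32.7% of the 32851 promoter windows of this length and in 5 of the 27 ligand windows, some genes having several. The forkhead core TGTTTAC occurs in 3.17% of all windows and in 0 of the 27, which says only that these letters are not in these windows. No motif of those searched lay in the Ccl17 window.

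Cxcl12, the ligand of Cxcr4 and Ackr3, stood at 1.30 and 2.72 in the 2 mock cultures of day 4 and at -1.11 and -0.77 in those with tamoxifen. At day 7 it stood at 0.46 and 2.24 in mock cultures and at -1.61 and -1.04 with tamoxifen. All 4 tamoxifen cultures were lower than all 4 mock cultures, and the mock cultures themselves were spread more widely than the treated ones. The difference was -2.95 at day 4 (adjusted p = 0.221), -2.68 at day 7 (adjusted p = 0.207) and -2.81 over both days (SE 0.57, 95% confidence interval -4.13 to -1.49, adjusted p = 0.0321, limma). A further probe, designed on another Cxcl12 transcript and also well above background on all 12 arrays, read -0.78 and 0.87 in day 4 mock, -3.91 and -2.77 in day 4 tamoxifen, -1.49 and 0.25 in day 7 mock, and -3.95 and -3.80 in day 7 tamoxifen. Its difference over both days was -3.32, so both probes separated the treated from the mock cultures. The call of Cxcl12 was lost when any of 8 arrays was left out of the fit: either of the treated glomeruli, any of the 4 tamoxifen cultures, or replicate 2 of either mock group. Over the 12 fits that each leave out 1 array the adjusted p ran from 0.0222 to 0.118 and the difference from -3.26 to -2.37.

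Ccl17, which attracts T cells through Ccr4, stood at -1.38 and -2.10 in the day 4 mock cultures and at -0.35 and -0.30 with tamoxifen. At day 7 it read -0.39 and -1.89 in mock cultures and 0.09 and 0.22 with tamoxifen. The treated cultures lay above the mock cultures on both days, closely so for 1 mock array, replicate 1 of day 7. The difference was 1.41 at day 4 (adjusted p = 0.27), 1.29 at day 7 (adjusted p = 0.259) and 1.35 over both days (SE 0.30, 95% interval 0.65 to 2.06, adjusted p = 0.0461). This call was close to the threshold. It was kept in 2 of the 12 fits that leave out 1 array, those without replicate 1 or replicate 2 of the day 7 mock cultures, with adjusted p from 0.0049 to 0.157 and a difference of 0.98 to 1.73.

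Cx3cl1, the membrane-anchored fractalkine that binds Cx3cr1 on monocytes, was at 2.85 and 2.06 in day 4 mock cultures and at 3.59 and 3.77 with tamoxifen. At day 7 the mock cultures read 3.10 and 1.68 and the tamoxifen cultures 3.31 and 3.44. Treated arrays were above mock arrays throughout, with the same mock array of day 7 nearest to them. The difference over both days was 1.10 (SE 0.33, 95% interval 0.34 to 1.86, adjusted p = 0.104), which did not pass, and without that day 7 mock array it was 1.46 (adjusted p = 0.0212).

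Ccl7 and Ccl2, neighbouring genes whose products attract monocytes through Ccr2, had the other 2 of the 4 highest differences on each day. Ccl7 read 0.15 and 1.07 in day 4 mock, 1.21 and 2.23 in day 4 tamoxifen, 0.32 and 1.11 in day 7 mock, and 1.33 and 2.62 in day 7 tamoxifen. Its treated and mock arrays did not overlap, but by little, and the difference over both days was 1.19 (SE 0.37, 95% interval 0.33 to 2.05, adjusted p = 0.119). Ccl2 read 0.58 and 1.55 in day 4 mock, 1.24 and 2.64 in day 4 tamoxifen, 0.83 and 0.96 in day 7 mock, and 1.20 and 2.35 in day 7 tamoxifen. Its groups overlapped at day 4 but not at day 7, and the difference over both days was 0.88 (SE 0.48, adjusted p = 0.353). For both genes the level in replicate 2 was above that in replicate 1 in all 4 culture groups.

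**Figure D2:**
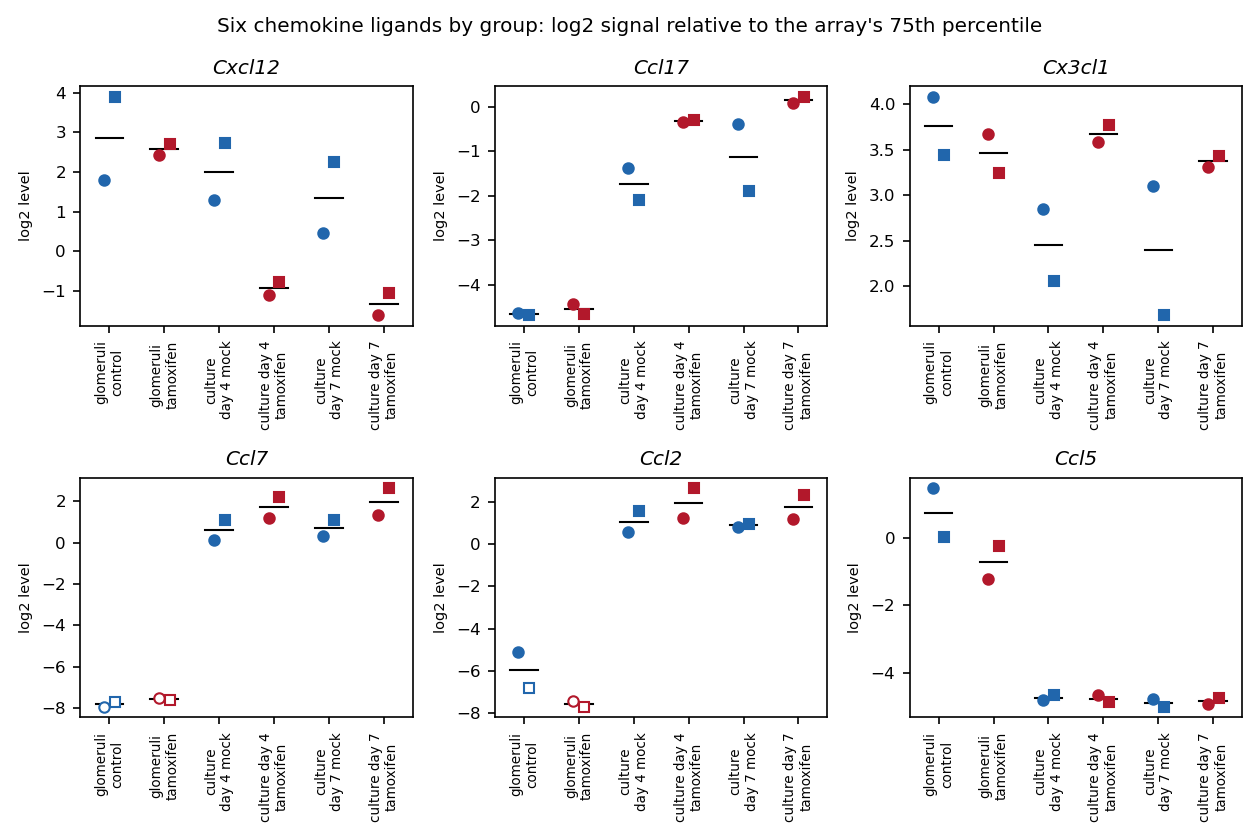
Log2 level relative to the array's 75th percentile (vertical axis) of Cxcl12, Ccl17, Cx3cl1, Ccl7, Ccl2 and Ccl5 on each array of the 6 groups. Circles are replicate 1 and squares replicate 2, blue is control or mock, red is tamoxifen, open symbols are not well above background and lines are group means. Cxcl12 is lower in all 4 tamoxifen cultures than in the 4 mock cultures, and Ccl5 is at -1.21 or above in glomeruli and at -4.67 or below in cultures.

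Among ligands well above background on at least 1 array of both groups, the lowest differences in the cultures besides Cxcl12 belonged to Cxcl1, Ccl6 and Ccl9, none of which passed. The neutrophil attractant Cxcl1 differed by -0.85 at day 4 and -1.30 at day 7 (over both days -1.08, SE 0.73, adjusted p = 0.46). Ccl6 differed by -0.60 and -1.11, and Ccl9 by -0.55 and -1.18, with treated and mock arrays overlapping for all of these. The interferon-induced Cxcl10 differed by -0.55 at day 4, where its arrays did not overlap, and by -0.33 at day 7, where they did. Ccl24, above background in replicate 1 of each mock group and on no tamoxifen culture, differed by -1.08 over both days (adjusted p = 0.533), so this is set partly by background. The other tested ligands had differences over both days between -0.63 (Cxcl14, adjusted p = 0.582) and 0.25 (Cxcl9, adjusted p = 0.768), and Ccl25, Ccl27a, Ccl5, Ccl28, Cxcl13 and Cxcl16 were within 0.09 of 0. Ccl28 and Cxcl9 were well above background on only 1 culture array each, so their values compare signals at or near background. Intervals were wide for Ccl28 (-2.23 to 2.12 over both days) and Cxcl13 (-2.37 to 2.51 at day 7), so a mean near 0 does not show that they were unchanged. No difference between the day 7 and the day 4 response passed for any ligand (0 of 21, against 0% of all genes, although 138 genes had an unadjusted p under 0.05), and for Cxcl12 that difference was 0.27 with a 95% interval of -2.37 to 2.91. Mock cultures of day 7 and day 4 also gave 0 calls of 21 (0.0328% of all genes), with 0 ligands and 988 of the 15230 genes at an unadjusted p under 0.05. Ccl19 was the 1 ligand whose arrays did not overlap there (29.9% of all genes), at -3.82 and -4.33 on day 7 against -4.54 and -4.70 on day 4. The days lay on different slides, scanned at different times, and day and slide cannot be told apart.

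**Figure D3:**
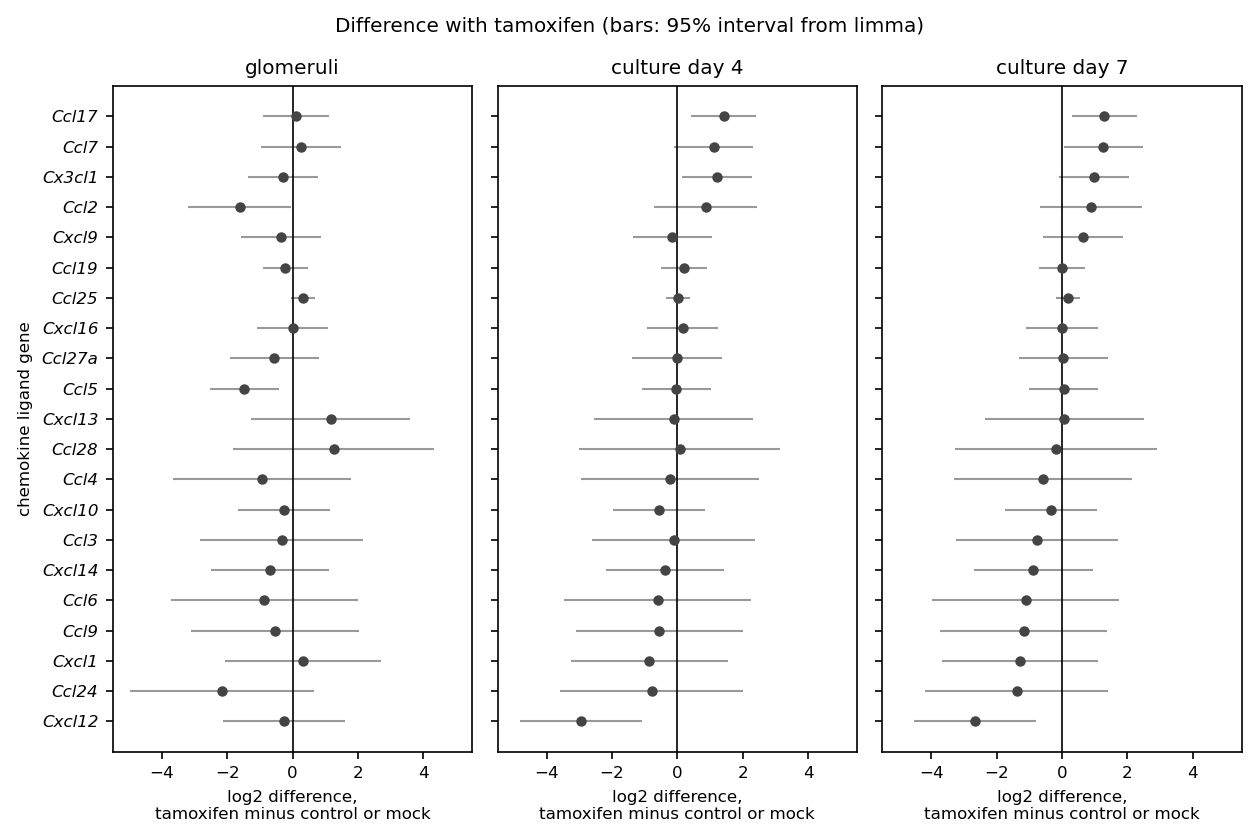
Difference in log2 level, tamoxifen minus control or mock (horizontal axis), for the 21 tested ligands in glomeruli and in cultures of day 4 and day 7 (panels), with 95% confidence intervals from limma. The intervals of Cxcl12 and Ccl17 lie to one side of 0 on both culture days and span 0 in glomeruli, and no single day or glomerular difference passed after adjustment.

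In glomeruli 2 of the 21 ligands and 2788 of the 15230 genes had an unadjusted p under 0.05 after tamoxifen. No ligand passed after adjustment (0 of 21 by limma, against 2.62% of all genes). That share of all genes ran from 0.519% (without either day 4 tamoxifen culture) to 3.24% (without treated replicate 2) as arrays were left out. Groups did not overlap for 6 ligands, against 48% of all genes, and the median difference was -0.30 over the ligands and -0.05 over all genes. Fewer cells of a type and less RNA per cell cannot be told apart in such bulk samples. Ccl5, a product of T cells, natural killer cells and platelets, was at 1.49 and 0.05 in control glomeruli and at -1.21 and -0.22 after tamoxifen. The higher treated mouse was close to the lower control. The difference was -1.48 (SE 0.46, 95% interval -2.54 to -0.42, adjusted p = 0.135). Without replicate 2 of the controls it was -2.20 (adjusted p = 0.033), and over the 12 fits that leave out 1 array it ran from -2.20 to -0.76 (adjusted p up to 0.492).

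Ccl2 was at -5.11 and -6.80 in control glomeruli, where only replicate 1 was well above background, and at -7.45 and -7.69 after tamoxifen. Its difference of -1.62 (adjusted p = 0.261) thus compares signals at or near background. Ccl24, an eosinophil attractant, was likewise above background in that same control mouse only (-4.82) and at -6.47 in the other control and -7.85 and -7.76 after tamoxifen (difference -2.16, adjusted p = 0.397). The monocyte and T cell attractants Ccl3 and Ccl4 were above background in 2 and 1 of the 4 glomerular samples. They overlapped between the groups.

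Among ligands measured in both groups, the lowest differences after Ccl5 were those of Ccl6 (-0.86), Cxcl14 (-0.68) and Ccl27a (-0.56), and the highest those of Cxcl13 (1.17), Cxcl1 (0.33), Ccl25 (0.31) and Ccl17 (0.10). Ccl6 read -0.32 and -0.67 in controls and -1.95 and -0.76 after tamoxifen, which did not overlap. Ccl25 read -1.96 and -1.89 in controls and -1.52 and -1.69 after tamoxifen, also without overlap, although its small difference did not pass (adjusted p = 0.352). The B cell attractant Cxcl13 varied widely, at -0.76 and -3.08 in controls and -0.19 and -1.31 after tamoxifen, with overlap. Ccl27a was low in 1 treated mouse, replicate 2 (-1.83), and between -0.55 and -0.12 in the other 3, and 1 further probe of the gene read -7.45 in that mouse and between -2.54 and -2.19 in the others. The pair of membrane-bound ligands showed little. Cx3cl1 read 4.08 and 3.44 against 3.68 and 3.25, and Cxcl16, which binds Cxcr6, read -0.24 and -1.03 against -0.63 and -0.64.

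Markers of blood cells and tubules moved in the same glomeruli, and their part in the ligand values was not tested. Of 6 red blood cell markers 4 were called lower after tamoxifen, with a median difference of -4.89. The 7 tested neutrophil markers had a median of -2.02 and 0 calls, with a summed level of 4.30 to 4.46 in controls and 1.46 to 3.04 after tamoxifen. Of 10 tested T, NK and B cell markers, 8 had lower means and 1 was called, the B cell gene Ms4a1 (-1.95, adjusted p = 0.0238). Their median was -0.84 and their summed level 1.82 to 2.61 in controls and 1.37 to 1.71 after tamoxifen. Of 12 tested macrophage and monocyte markers, 11 had lower means and 0 were called (median -0.70), with a summed level of 3.84 to 3.94 in controls and 3.35 to 3.66 after tamoxifen. Tubule markers moved the other way, with 2 of 10 called higher (Slc22a6 at 1.65 and Slc12a1 at 1.48). The platelet chemokine Ppbp, a Cxc ligand under another symbol and so no member, was at least 3.02-fold lower (adjusted p = 0.0226), being well above background in both controls and in neither treated mouse, while Pf4, the other such platelet chemokine, differed by 0.48.

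For the ligands that were called in cultures, glomeruli gave other values. Cxcl12 read 1.79 and 3.89 in control glomeruli and 2.43 and 2.72 after tamoxifen. Both treated mice lay between the 2 controls. The difference was -0.27 (SE 0.81, 95% interval -2.13 to 1.60, adjusted p = 0.903), and the further Cxcl12 probe gave 0.14. Ccl17 read -4.63 and -4.68 in controls and -4.44 and -4.65 after tamoxifen, a difference of 0.10 (95% interval -0.89 to 1.10). In the direct test of glomerular against mean culture response no ligand passed (0 of 21 by limma, against 1.08% of all genes). Before adjustment 5 ligands were under 0.05, beside 2573 of the 15230 genes. The responses differed by 2.54 for Cxcl12 (SE 0.99, adjusted p = 0.242), by -2.50 for Ccl2 (adjusted p = 0.183), by -1.49 for Ccl5 (adjusted p = 0.232), by -1.40 for Cx3cl1 (adjusted p = 0.262) and by -1.25 for Ccl17 (adjusted p = 0.283). These 5 were the ligands under 0.05 before adjustment. In glomeruli Ccl2 was at or near background. With 2 arrays a group, a lack of calls does not show that the responses were alike. Whether a ligand responded differently in glomeruli and in cultures was not settled.

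Mock cultures against control glomeruli gave more calls, among ligands and among all genes, than any tamoxifen comparison. Of the 21 ligands 11 passed (52.4%, against 63.6% of all genes), 7 of them higher in cultures (37.6% of all genes were) and 4 lower (26% of all genes). The median was 0.58 over the ligands and 0.17 over all genes, and arrays did not overlap for 12 ligands, against 71.4% of all genes. In this fit the share of ligands called was below that of all genes. Glomeruli and cultures lay on different slides, and slide and sample type cannot be told apart. These are the same control and mock arrays as in the tamoxifen comparisons.

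The monocyte attractants led the higher group. Ccl7 was between 0.15 and 1.11 in the 4 mock cultures and not well above background in any glomerular sample, at -7.92 and -7.69 in the controls. It was at least 102-fold higher in cultures, the control level being set at the lowest signal well above background on those arrays (adjusted p = 2.75e-06). Ccl2 was at -5.11 and -6.80 in control glomeruli, with 1 of the 2 above background, and between 0.58 and 1.55 in mock cultures (difference 6.93, SE 0.59, adjusted p = 3.03e-05). Both genes were thus high in every culture, treated or not, and dim in nearly every glomerular sample. Ccl6, at -0.32 and -0.67 in control glomeruli, ranged from 1.47 to 4.19 in mock cultures (difference 3.42, SE 1.07, adjusted p = 0.0234). Ccl9, at -2.91 and -2.69, ranged from -0.77 to 1.50 (difference 3.28, SE 0.96, adjusted p = 0.0175). Both ligands, which bind Ccr1, were higher in all 4 mock cultures than in both controls, with a wide range among the cultures.

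A further 3 ligands were higher. Ccl17 was at -4.63 and -4.68 in control glomeruli and between -2.10 and -0.39 in mock cultures (difference 3.21, adjusted p = 0.000158). The epithelial and fibroblast chemokine Cxcl14 was at -4.22 and -5.03 and between -2.88 and -1.14 (difference 2.52, adjusted p = 0.012). Ccl25 had the tightest values, at -1.96 and -1.89 against -0.65 to -0.27 (difference 1.47, SE 0.14, adjusted p = 5.06e-05), although a further probe on a non-coding Ccl25 transcript, above background on 6 arrays, gave -0.34. Ccl3 (2.40, adjusted p = 0.0514) and Ccl4 (2.01, adjusted p = 0.117) did not pass.

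On the lower side, Ccl5 was at 1.49 and 0.05 in control glomeruli and between -5.01 and -4.67 in mock cultures (48.4-fold lower, difference -5.60, SE 0.40, adjusted p = 1.18e-05). It was still well above background in every culture and hardly varied among them. Cxcl16 differed by -1.74 (adjusted p = 0.00635), Cxcl10 differed by -1.71 (adjusted p = 0.0216) and Cx3cl1 by -1.34 (adjusted p = 0.0194). Cxcl10 read -0.20 and -1.19 in control glomeruli and between -3.12 and -1.86 in mock cultures, and Cx3cl1 4.08 and 3.44 against 1.68 to 3.10. The tamoxifen cultures read between 3.31 and 3.77 for Cx3cl1, within the range of the glomerular samples. Its difference between treated and mock cultures did not pass, and treated cultures were not tested against glomeruli. Cxcl13 (-1.92, adjusted p = 0.0993) and Cxcl12 (-1.16, adjusted p = 0.178) did not pass, and the 2 Cxcl12 probes gave opposite signs here (-1.16 and 0.97), so its level cannot be ordered between the systems. The calls of Ccl17, Ccl2, Ccl25, Ccl5 and Ccl7 were kept in each of the 12 fits without 1 array. The others were lost in some: Ccl6 without either control glomerulus or replicate 1 of either mock group (adjusted p up to 0.104), Ccl9 without either control glomerulus (up to 0.0842), Cxcl14 without control 2 (0.0872), Cxcl16 without control 1 (0.0631), Cx3cl1 without control 1 or day 4 mock 2 (up to 0.141), and Cxcl10 without control 1 or replicate 1 of either mock group (up to 0.164).

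**Figure D4:**
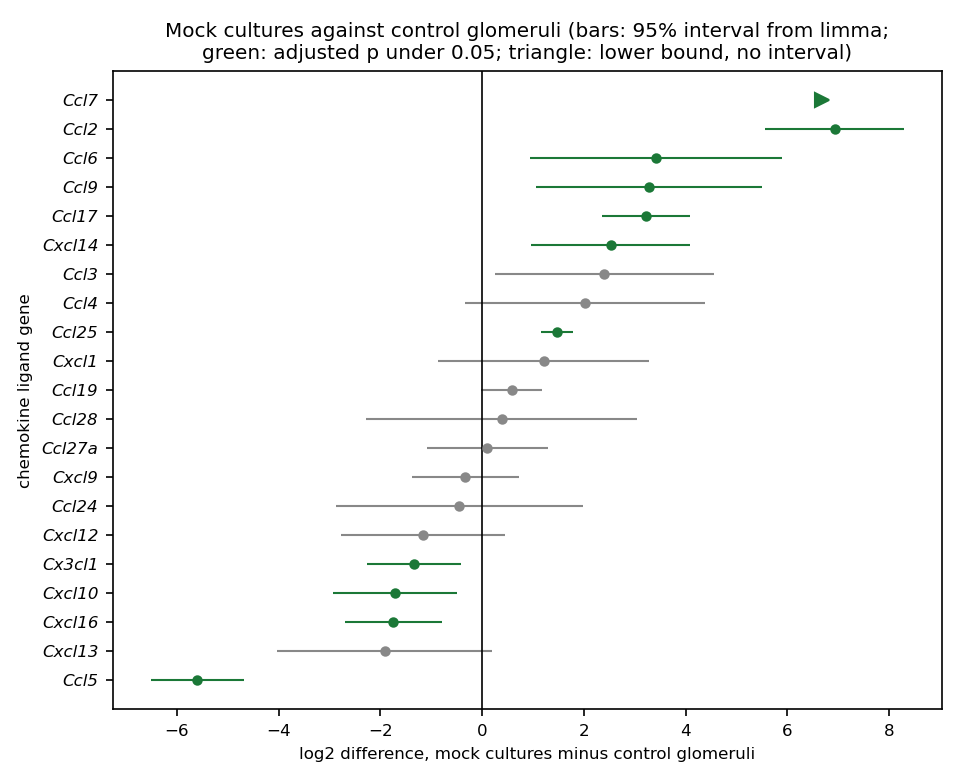
Difference in log2 level, mock cultures minus control glomeruli (horizontal axis), for the 21 tested ligands with 95% confidence intervals from limma, green where the adjusted p was under 0.05. A triangle marks Ccl7, which was dim in both controls, at its lower bound (6.67) with no interval, and Ccl7 and Ccl2 (6.93) lie far to the right and Ccl5 (-5.60) far to the left.

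Promoters of 5 ligands held matches to the motif of nuclear factor kappa B, searched as GGGA and TTCC with any 2 bases between them. Those of Cxcl1 and Cxcl10 are shown because these were the 2 ligands with this motif that were measured in both systems. Capitals mark the matches, and in Cxcl10 also the interferon response core, GAAA given 2 times with any 2 bases between.
Cxcl1: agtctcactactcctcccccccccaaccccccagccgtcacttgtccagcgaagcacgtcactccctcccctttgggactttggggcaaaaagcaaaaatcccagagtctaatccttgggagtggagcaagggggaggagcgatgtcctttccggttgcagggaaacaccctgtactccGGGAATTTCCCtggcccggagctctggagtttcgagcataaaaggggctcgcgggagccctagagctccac
Cxcl10: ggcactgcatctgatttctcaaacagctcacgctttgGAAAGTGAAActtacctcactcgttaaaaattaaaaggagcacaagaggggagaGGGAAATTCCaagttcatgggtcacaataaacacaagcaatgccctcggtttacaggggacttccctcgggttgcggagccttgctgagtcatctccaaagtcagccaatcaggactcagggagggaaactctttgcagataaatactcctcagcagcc
The windows lie at chr5:90890995-90891244 on the plus strand and chr5:92348890-92349139 on the minus strand. The Cxcl1 run holds 2 overlapping matches, 1 on each strand, at 71 and 70 bases before the start, and Cxcl10 holds 1 at 159 bases and the interferon core at 213 bases. The kappa B motif occurs in 1.21% of all windows and in 5 of the 27 ligand windows (Ccl1, Cxcl1, Cxcl10, Cxcl2 and Cxcl3). The interferon core occurs in 2.98% and in 3 (Ccl19, Cxcl10 and Cxcl14). Of the 5 with the kappa B motif, Ccl1, Cxcl2 and Cxcl3 were not above background on any array. Cxcl1 read -3.09 and -6.02 in control glomeruli and between -4.08 and -2.75 in mock cultures (difference 1.21, adjusted p = 0.267), and it overlapped between them.

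Replicate 1 and replicate 2 of the cultures differed in several ligands in the same way in each group. Replicate 1 was more than 1 above replicate 2 in all 4 culture groups for 6 of the 21 ligands, Ccl3, Ccl4, Ccl6, Ccl9, Ccl24 and Cxcl14, against 1.14% of all genes. The mean gap was 2.37 for Ccl6, 2.10 for Ccl9, 1.90 for Ccl4 and 1.45 for Cxcl14, which were well above background on all 8 culture arrays, and 1.72 for Ccl3, which was so on 7. Ccl24 was well above background on 2 culture arrays only, so its gap is taken against background. The other way round, replicate 2 was more than 1 above replicate 1 in all 4 groups for the mucosal chemokine Ccl28 and for Cxcl1, against 0.131% of all genes, but Ccl28 was well above background on 1 culture array only and its gap is not a measured difference. Whatever the size of the gap, replicate 1 was the higher in all 4 groups for 8 ligands (16.4% of all genes) and the lower for another 8 (20.4% of all genes). Ccl6 shows the pattern best, at 4.19 and 2.02 in day 4 mock, 3.64 and 1.37 in day 4 tamoxifen, 4.02 and 1.47 in day 7 mock, and 2.88 and 0.39 in day 7 tamoxifen. Companion lists differed between the replicates too. Replicate 1 was the lower in all 4 groups for 11 of 22 tested interferon signalling genes and the higher for 0. For nuclear factor kappa B signalling it was the lower for 10 of 24 tested genes and the higher for 3. Of 6 tested fibroblast markers it was the higher for 3 and the lower for 0. In these lists 0 genes differed by more than 1 in each group. Macrophage and monocyte markers differed in the direction of Ccl6. Replicate 1 was above replicate 2 in all 4 groups for 11 of the 12 tested markers, and by more than 1 for 7 of them, with a median gap of 1.44. Their summed level was 3.99 to 4.88 in day 4 mock, 3.81 to 4.33 in day 4 tamoxifen, 3.80 to 4.74 in day 7 mock and 3.19 to 4.01 in day 7 tamoxifen. All 12 had lower means with tamoxifen over both days (median -0.86, 0 called), as did Ccl6 and Ccl9. Against control glomeruli the complement genes C1qa (6.64), C1qb (4.99) and C1qc (7.00) and the macrophage marker Adgre1 (2.51) were called higher in mock cultures and Mrc1 (-4.21) lower. The part of macrophages in the ligand values of the cultures was not tested.

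**Figure D5:**
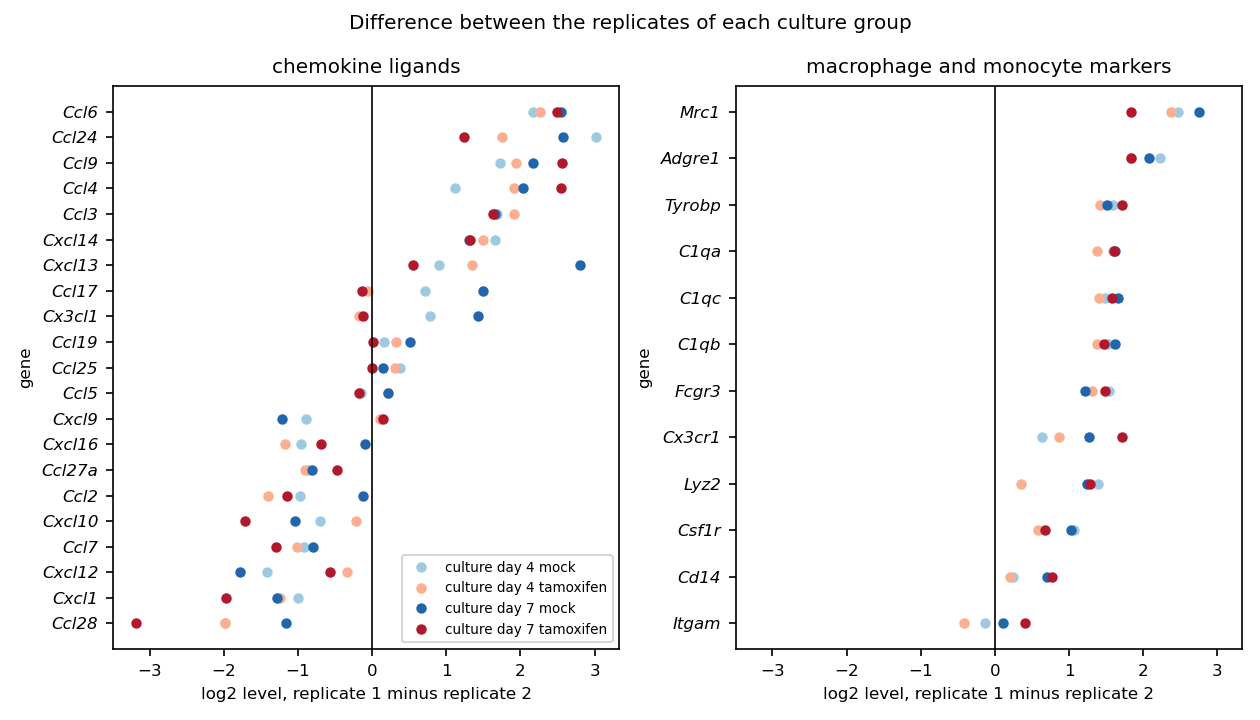
Replicate 1 minus replicate 2 in log2 level (horizontal axis) in the 4 culture groups (point styles) for the 21 tested ligands on the left and the 12 macrophage and monocyte markers on the right. Ccl6, Ccl9, Ccl4, Ccl3 and Cxcl14 lie above 1 in all 4 groups, as do 7 of the 12 markers and Ccl24, while Ccl24 and Ccl28 were at background on most of these arrays.

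The receptors of these ligands gave few calls after tamoxifen. Of 20 chemokine receptors without an Ackr symbol, the receptor-like Ccrl2 counted among them, 13 were tested. In cultures 0 were called after tamoxifen and the median was 0.11 (0.01 over all genes). Cxcr4, the receptor of Cxcl12, differed by -0.28 there and Cx3cr1, the receptor of Cx3cl1, by -0.75 (adjusted p = 0.46). In glomeruli 11 of the 13 had lower means after tamoxifen (median -0.62) and 1 was called, the neutrophil receptor Cxcr2 (-1.36, adjusted p = 0.0218), beside the neutrophil marker values given above. In mock cultures 7 of the 13 were called lower than in control glomeruli and 0 higher (median -1.58), against 26% of all genes lower and 37.6% higher. They included Ccrl2 (-4.62) and Cxcr4 (-2.22, adjusted p = 0.0116). Ccr7 and Cxcr2 were not well above background in any mock culture and were at least 11.3-fold and 3.61-fold lower there.

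Atypical receptors bind chemokines without signalling through G proteins and remove or carry them. All 4 genes with an Ackr symbol were tested. Ackr1, which binds many inflammatory ligands, was called higher after tamoxifen in cultures (1.56, SE 0.29, adjusted p = 0.0225), although it was well above background on only 3 of the 12 arrays, and Ackr4, which takes up Ccl19, Ccl21 and Ccl25, differed by 1.49 (adjusted p = 0.0586). Ackr3, which takes up Cxcl12, differed by -0.65. Against control glomeruli, Ackr2 was called lower in mock cultures (-8.16), and Ackr4, not well above background there, was at least 6.93-fold lower. Ackr1 was not well above background in either of these groups.

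Of 12 tested genes that process or present chemokines, 0 were called in treated cultures (median 0.06), where Dpp4, the peptidase that trims Cxcl12, differed by -0.95 (adjusted p = 0.107). In glomeruli the sheddase Adam17 (-0.82) was called lower. Mock cultures had 4 called higher and 4 lower than control glomeruli, among them Mmp2 (3.98) and Dpp4 (-3.93).

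Of 30 genes of nuclear factor kappa B and inflammatory signalling 24 were tested. In cultures after tamoxifen 1 was called, the macrophage growth factor Csf1 (0.75, adjusted p = 0.00738), the median being -0.11, and in glomeruli 0 were called (median -0.03). Of 24 interferon genes 22 were tested. Over both culture days Socs1, a feedback inhibitor, was called higher (1.03, adjusted p = 0.0422) and the interferon-induced Ifit2 lower (-0.999, adjusted p = 0.043), with a median of -0.23. In glomeruli 18 of the 22 had higher means after tamoxifen (median 0.40) and 0 were called. Against control glomeruli, mock cultures had 10 kappa B genes called higher and 8 lower, and 3 interferon genes higher and 6 lower, led by Rsad2 (-6.72).

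The other cell type markers gave few calls after tamoxifen. In cultures the podocyte phosphatase Ptpro (-1.40, 1 of 12 podocyte markers called, median -0.29) and the tight junction gene Cldn1 (-1.73, 1 of 5 parietal markers, median 0.46) were called lower, and Myh11 (1.06, 1 of 8 mesangial and mural markers, median 0.11) higher. None were called in cultures among the tested endothelial (10, median -0.09), fibroblast (6, median 0.61), tubule (10, median 0.24), lymphocyte (10, median 0.02), dendritic cell (3, median 0.11), neutrophil (7, median 0.05), platelet (5, median -0.20) or red blood cell (6, median -0.05) markers. In glomeruli the podocyte gene Synpo (-1.32, median of the 12 -0.43) was called lower and Acta2 (1.10, median of the 8 mesangial and mural markers 0.35) higher, with 0 calls among endothelial (median -0.32), fibroblast (median 0.50), parietal (median 0.61) and dendritic cell markers, while Ppbp was the 1 platelet marker called (median 0.08).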

How the data were processed

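Total RNA of 12 samples was labelled with Cy3 and read on Agilent one-colour arrays. Per the file headers and the submitters' processing notes, the authors extracted the spot intensity with Agilent Feature Extraction 11.5.1.1, whose processed signal is already background-subtracted. The deposited value table is on the log2 scale and equals the levels computed here up to 1 constant per array, 0.094 to 0.121 by array, so its scale and its direction are known and its centring differs only by that constant. Alignment does not apply.

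From the scanner intensity, control and outlier spots were left out, spots of a probe were averaged, and log2 of the processed signal minus the 75th percentile of the array was taken. Of 39429 probes, 26581 carried 1 gene symbol and 0 several, and 28115 carried a RefSeq accession. Members and lists were matched through the RefSeq gene table by accession and symbol. A probe was kept where it was well above background on at least 2 arrays, and of several probes the one with the highest mean stood for the gene, which left 26421 probes and 15230 genes. The 6 group means were fitted over all 12 arrays with lmFit and eBayes of limma 3.58.1 in R 4.3.3 (6 residual degrees of freedom and 1.87 prior), and p-values were adjusted over all 15230 genes. Contrasts were tamoxifen against control in glomeruli, on each culture day and over both days, day 7 against day 4, mock cultures against control glomeruli, and 2 differences of responses. The fit was tested on simulated data.

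A list's summed level is log2 of the summed linear levels of its tested genes. Precision is limited by 2 arrays a group. Each slide held 1 sample type or day, both treated and untreated, so tamoxifen comparisons lay within 1 slide and a slide term cannot be fitted for the rest. Members named with values were those called in any contrast, those above background on all 12 arrays, and the 4 highest and 4 lowest differences in each tamoxifen contrast and between mock cultures and control glomeruli. The ligands, the 18 companion lists and the tests were chosen with earlier results of these data known. Other background correction, scaling, filters, probe summaries, a replicate block, fits of only the arrays compared, the authors' value table and leaving out each array were tried.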

Additional observations from a re-analysis of the deposited data

How the results depend on the processing

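Of the 8 counts of called ligands, those that moved by more than 1.5 times did so under 4 settings, beside the fits that leave out an array. With normexp background correction 7 ligands were called at day 4, where 5044 of all genes (33.1%) were called and the median of all genes was 0.188, and Ccl24 (1.14, adjusted p = 0.0389) and Cxcl9 (1.27, adjusted p = 0.0223) turned from lower to higher. Both were near background, and the cause was not tested. With no filter on dim probes 1 ligand was called at day 7 (0.606% of all genes) and 1 between the mock cultures of the days (0.0496%). No ligand tested in the main fit gained a call there, so these calls fell on ligands that the filter had left out. All of those were well above background on 1 array or on none. With only the arrays compared 1 was called over both culture days (4.04% of all genes). Leaving out 1 array at a time, which leaves 1 array in a group, moved the counts in 4 comparisons. They were those in glomeruli, at day 7, over both culture days and between mock cultures and control glomeruli. The share of all genes called moved too, so these counts are not read as a result about the ligands. Over both culture days the difference ran from -3.26 to -2.37 for Cxcl12 and from 0.98 to 1.73 for Ccl17 in these fits. Cxcl12 kept its call over both culture days in 11 of 11 other settings (adjusted p 0.00694 to 0.0459) and Ccl17 in 9 of 11 (0.0234 to 0.0943), lost with no filter (0.0639) and with only the arrays compared (0.0943). Calls between mock cultures and control glomeruli were 13 under median or quantile scaling, beside 67% and 63.9% of all genes. Median scaling moved the median of all genes there from 0.17 to 0.41. Over all genes the glomerular count was 399 and became 5 with normexp, 257 with no filter and 0 with only the arrays compared. Leaving out 1 array moved it from 79 to 494, and the count over both culture days from 227 to 926.

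The replicate numbers share no stated culture. Deviations of same-numbered arrays correlated at r = 0.395 to 0.551 between culture groups and 0.21 between the glomerular groups. Between a glomerular and a culture group r was -0.0383 to 0.0853, and no label links a mouse to the culture of the same number. A block over all arrays joins them nonetheless. With the number as a replicate block over all arrays, 3 ligands were called over both culture days (14.3%, against 7.47% of all genes). Between mock cultures and control glomeruli 16 were called. With the block within cultures 1 was called at day 4 (1.77% of all genes), 1 at day 7 (3.3%) and 3 over both days (9.7%). Between the glomerular and culture responses 1 was called (2.9% of all genes). In the tamoxifen and response comparisons the ligand gained was Ccl7 (over both days 1.19, adjusted p = 0.0294 and 0.00177, and with the block within cultures -0.93 between the responses, adjusted p = 0.0464). Ccl7 was not well above background in any glomerular sample, so its difference between the responses has no measured glomerular side. Between mock cultures and control glomeruli the block over all arrays added Ccl19, Ccl3, Ccl4, Cxcl12 and Cxcl13. These put the ligands' share (76.2%) above that of all genes (66.3%), but the probes of Ccl19 and of Cxcl12 disagreed in sign there. For Ccl19 the tested probe gave 0.58, and further probes, well above background on 5 arrays and on 1, gave -0.82 and -1.04. The block within cultures added Ccl3 and Ccl4 (61.9% against 67.1%). The count of all genes over both days was 777 without a block, 1137 with it and 1478 within cultures, and at day 4 32, 110 and 269.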
